A study of Drosophila melanogaster with 8 samples.

Results

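The regions described here lie on the Drosophila melanogaster chromosome arms 2L, 3L and 3R. Each held a peak of immunoprecipitated N6-methyladenine (6mA) DNA in both ovary libraries that overexpress Sam-S and in the first control library, and none in the second control library. Overlapping peaks of the 4 genome lists, by 1 bp or more, were joined into regions. The members were selected on the measured peak calls of all 4 libraries, which gave 889 members out of 7001 merged regions in all and out of 3475 on these 3 arms. The overexpressing genotype, Sam-S_OE, carried a UASp-Sam-S transgene expressed in the germline with nanos-gal4. The other genotype is named control in the labels and wild type in the series' design line, and whether it carried the driver or the transgene alone is not stated. Each genotype gave 2 immunoprecipitated ovary libraries, Sam-S 1 and control 1 in batch 1, and Sam-S 2 and control 2 in batch 2, as the labels' batch field gives them. The age of the flies, the number of ovaries pooled and whether replicates came from separate flies are not given in the sources used here, so the spread between libraries may be technical. The driver acts in the germline, whereas the DNA came from whole ovaries, which also hold somatic follicle cells.

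Sam-S encodes S-adenosylmethionine synthetase, which joins methionine and ATP into S-adenosylmethionine, the methyl donor for most cellular methylation. 6mA is adenine with a methyl group on its exocyclic nitrogen, a mark well known in bacterial DNA and reported at low levels in fly embryos and ovaries. In MeDIP-seq an antibody to the modified base pulls down sheared genomic DNA, and a peak is a stretch where the precipitated fragments outnumber those of the input library. The Tet gene of the fly, the single relative of the mammalian TET dioxygenases, has been described as a 6mA demethylase in ovaries.

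The immunoprecipitated libraries held between 39591292 and 49800736 tags, and each was called against its own input of 39571865 to 52344880 tags. Sam-S 1 listed 4244 peaks, Sam-S 2 listed 5509, control 1 listed 3433 and control 2 listed 683, although control 2 was the deepest for both the precipitate and the input. Because the members lack a control 2 peak by construction, every comparison of the genotypes at them sets a Sam-S library against control 1 only. With a single control library, and with the same peak calls used to choose the members, folds and counts at the members are given as descriptions, without a test.

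Enrichment at the members was modest in all 3 libraries that called them. The fold enrichment over input, which is the authors' value for each peak, had a median of 2.04 in Sam-S 1 (lowest 1.35, highest 3.03), 2.14 in Sam-S 2 (lowest 1.34, highest 3.36) and 1.91 in control 1 (lowest 1.31, highest 2.77). The 3 distributions overlapped over nearly their whole range. The same arms held 251 regions called in all 4 libraries, where Sam-S 1 had a median of 2.40, Sam-S 2 of 2.49, control 1 of 2.22 and control 2 of 1.79. The members were thus weaker than those regions in each of the 3 libraries that can be compared. They were also shorter, with a median of 311 bp (209 to 1363 bp) against 442 bp, and covered 310 kb in all. Few members were compound, with a second peak in 7 members for Sam-S 1, 3 for Sam-S 2 and 10 for control 1.

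**Figure D1:**
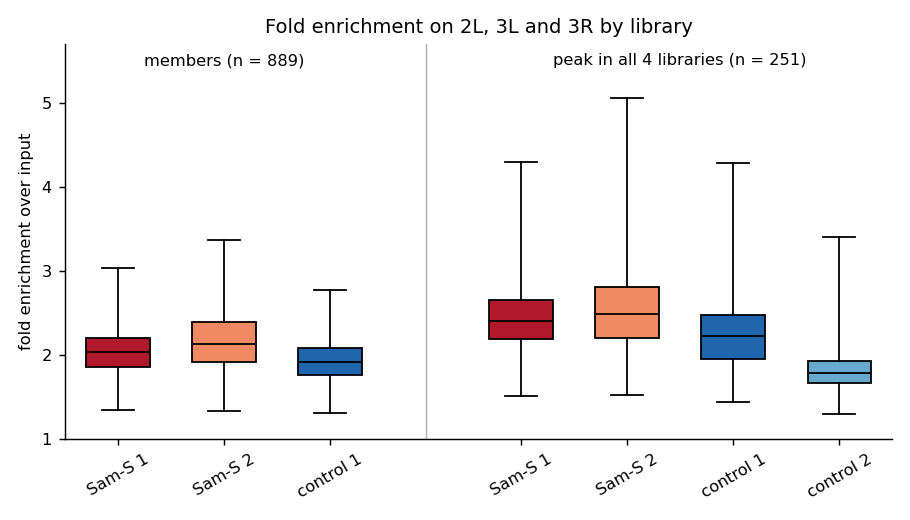
Fold enrichment over input (y axis) at the 889 members and at the 251 regions called in all 4 libraries, for each library. Boxes span the quartiles with the median as a line, and whiskers reach the lowest and highest region. The member medians lie at 2.04 in Sam-S 1, 2.14 in Sam-S 2 and 1.91 in control 1, and control 2 has values only at the regions called in all 4 libraries, with a median of 1.79.

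Region by region, the Sam-S libraries were slightly higher than control 1. Within batch 1, Sam-S 1 exceeded control 1 at 645 of 889 members (72.6%), beside 72.7% of all 2491 regions of the series with a peak in both. The median log2 ratio of Sam-S 1 over control 1 was 0.07, which is 1.05-fold, with quartiles of -0.01 and 0.16. Sam-S 2 was higher than control 1 at 715 members (80.4%), beside 79.5% of 2746 regions in the background, with a median log2 ratio of 0.16 (1.11-fold) and quartiles of 0.03 and 0.27. This second comparison crosses the batches, so genotype and batch cannot be told apart in it. Both comparisons share control 1, so their like direction is not independent.

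The median shift between the Sam-S replicates was about that of Sam-S 1 over control 1. It was less than that of Sam-S 2 over control 1. Sam-S 2 was higher than Sam-S 1 at 577 members (64.9%, background 66.2%), with a median log2 ratio of 0.08, against the 0.07 of Sam-S 1 and the 0.16 of Sam-S 2 over control 1. The control replicates can be compared only at the regions called in all 4 libraries, where the median log2 ratio of control 2 over control 1 was -0.31. For a single member, the counting error of the log2 ratio had a median of 0.16 for either Sam-S library over control 1. The standard deviation of the log2 fold ratio over members was 0.14 for Sam-S 1 and 0.18 for Sam-S 2 over control 1. Between the Sam-S replicates it was 0.19, the largest of these. For ratios of stacked tags at the summit, scaled to library size, the standard deviations over control 1 were 0.11 for Sam-S 1 and 0.15 for Sam-S 2. Both were below that counting error. Counting errors are computed from the stacked tags at the summit and cover counting only.

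Few members passed a ratio of 1.25-fold. Sam-S 1 exceeded control 1 by more than that at 48 members (5.40%, background 6.22%) and was lower by more than that at 7 (0.787%, background 0.883%). Sam-S 2 was higher at 146 members (16.4%, background 17.5%) and lower at 4 (0.450%, background 0.983%). Sam-S 2 passed it over Sam-S 1 at 84 members (9.45%, background 8.74%) and the reverse held at 17 (1.91%, background 2.1%). The shares of members passing in the upward direction were close to those over all regions with a peak in both libraries. Regions called in all 4 libraries gave a median log2 ratio over control 1 of 0.11 for Sam-S 1 and 0.17 for Sam-S 2. Over control 2 the medians there were larger, at 0.42 for Sam-S 1 and 0.48 for Sam-S 2. The ratio within a batch was thus 0.11 in batch 1 and 0.48 in batch 2 at those regions, and the members have no value for batch 2. On the X chromosome, the 517 regions with the same pattern of peaks had medians of 0.07 and 0.18.

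**Figure D2:**
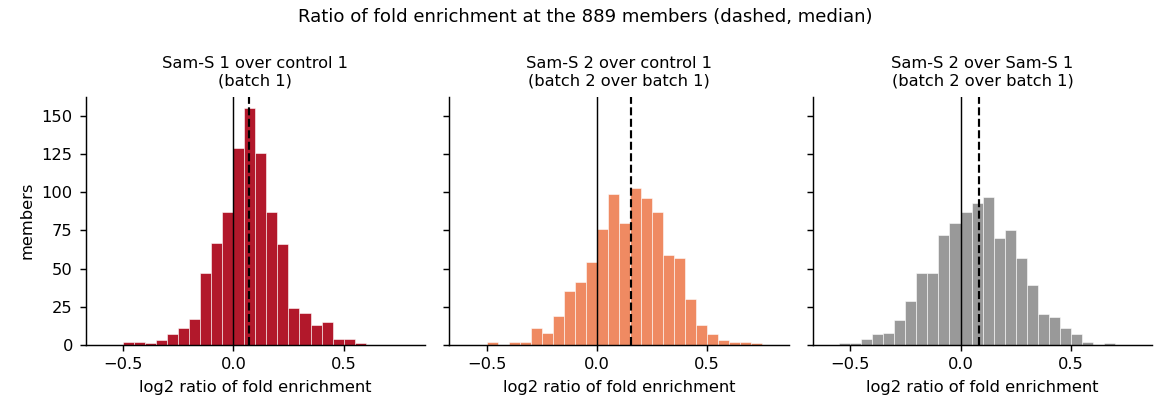
Number of members (y axis) by log2 ratio of fold enrichment (x axis) for Sam-S 1 over control 1, Sam-S 2 over control 1 and Sam-S 2 over Sam-S 1. The solid line marks 0 and the dashed line the median, which is 0.07, 0.16 and 0.08 from left to right. The median shift between the Sam-S replicates is thus about that of Sam-S 1 over control 1 and less than that of Sam-S 2. Their ratios spread the most over members, with a standard deviation of 0.19.

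The 3 arms gave like values. The median log2 ratio of Sam-S 1 over control 1 was 0.09 on 2L, 0.06 on 3L and 0.07 on 3R, and that of Sam-S 2 over control 1 was 0.15, 0.17 and 0.15. Members inside genes had medians of 0.08 for Sam-S 1 and 0.15 for Sam-S 2, and members outside genes had 0.07 and 0.17. These differences are smaller than the spread between the Sam-S libraries.

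A fold can differ because the precipitated tags differ or because the input background does. The caller divides by the local input or by its genome-wide average, whichever is higher, and the genome-wide value stood under 57.8% of Sam-S 1, 51.1% of Sam-S 2 and 60.0% of control 1 peaks at members. At the regions called in all 4 libraries these shares were 37.8% in Sam-S 1, 25.9% in Sam-S 2 and 41.0% in control 1. At the 457 members where both Sam-S 1 and control 1 stood at the genome-wide value, the median log2 ratio was 0.06, and at the 395 members where Sam-S 2 and control 1 did, it was 0.20. The pileup is the number of fragments stacked at the summit, and the normalised pileup, per 1000000 precipitated tags, leaves the input out. On that scale the medians over all members were 0.08 for Sam-S 1 and 0.15 for Sam-S 2.

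For Sam-S 1, most of the largest fold ratios went with unequal backgrounds. Of the 48 members that were over 1.25-fold higher in Sam-S 1 than in control 1, 10 were also over 1.25-fold higher by pileup, and 42 had a control 1 background, relative to the genome-wide value, over 5% above that of Sam-S 1, beside 121 of all 889 members. Of the 146 such members for Sam-S 2, 100 passed 1.25-fold by pileup and 52 had a control 1 background over 5% above that of Sam-S 2, beside 143 of all members. The background is the denominator of the fold, so choosing extreme fold ratios favours unequal backgrounds. Of the 7 members that were lower in Sam-S 1, 1 stood at the genome-wide background in both libraries, and the median log2 ratio of the 7 was -0.41 by fold and -0.08 by pileup. The 4 members lower in Sam-S 2 had medians of -0.42 by fold and -0.02 by pileup.

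**Figure D3:**
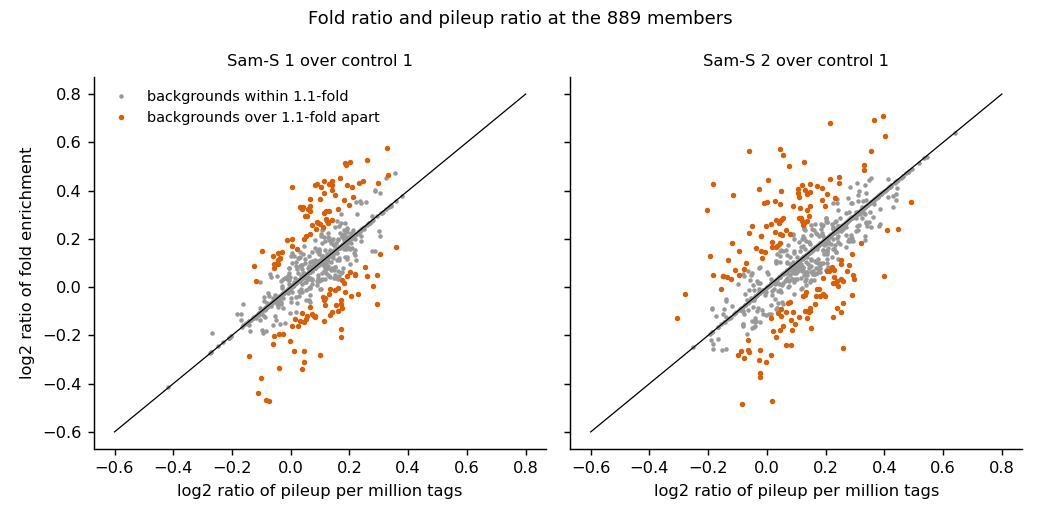
Log2 ratio of fold enrichment (y axis) against log2 ratio of normalised pileup, per 1000000 precipitated tags, (x axis) at the 889 members, for each Sam-S library over control 1. Orange points are members whose input backgrounds are over 1.1-fold apart, 133 for Sam-S 1 and 169 for Sam-S 2. The background was derived from fold and pileup, so distance from the line of equality reflects the background ratio by construction.

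The members with the highest ratios in both Sam-S libraries all had a control 1 background above its genome-wide value. At 2L 7831918 to 7832804 in mts, the catalytic subunit of protein phosphatase 2A, the fold was 1.91 in Sam-S 1 and 2.20 in Sam-S 2, against 1.34 in control 1. Its log2 ratios to control 1 were 0.50 and 0.71 by fold, and 0.19 and 0.39 by pileup. At 2L 3914643 to 3915072 in fred, an immunoglobulin-domain adhesion protein related to Echinoid, the fold was 2.04 in Sam-S 1 and 2.09 in Sam-S 2, against 1.53 in control 1. By pileup its 3 libraries were alike, with a normalised pileup of 3.64 in either Sam-S library and 3.63 in control 1. The background of fred in control 1 was 1.41 times the genome-wide value, beside 1.06 times in Sam-S 1 and 1.04 times in Sam-S 2. The other members of this kind lay in CG45263, CG14322 and Mob2. The CG45263 member, 3R 8413929 to 8414204, which also overlaps lncRNA:CR46126, had 2.44 in Sam-S 1 and 2.83 in Sam-S 2, against 1.77 in control 1. At CG14322, 3R 17666525 to 17666800, the folds were 2.06 and 2.28 in the Sam-S libraries and 1.56 in control 1, and at Mob2, 3L 11541820 to 11542093, they were 2.46 and 2.27 against 1.72.

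The members with the lowest ratios were led by 3L 1569521 to 1569866 in Tmep. It had folds of 1.95 in Sam-S 1 and of 1.74 in Sam-S 2, against 2.42 in control 1, while its normalised pileup was 4.50 in Sam-S 1, 4.42 in Sam-S 2 and 4.37 in control 1. Of the 5 lowest members, 1 kept the same distance on both measures for both Sam-S libraries. This was 2L 7129153 to 7129590 in Pvf3, a ligand related to platelet-derived and vascular endothelial growth factors, with folds of 1.58 in Sam-S 1 and of 1.60 in Sam-S 2 against 1.90 in control 1. All 3 libraries stood at the genome-wide background there, and the log2 ratios were -0.27 and -0.25 both by fold and by pileup, each beside a counting error of 0.18.

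A control 2 peak was missing more often where the region was weaker in control 1. Among control 1 regions of the 3 arms with a fold of at most 1.75, 207 were members and 19 had a peak in all 4 libraries. The corresponding counts were 366 and 52 between 1.75 and 2, 211 and 60 between 2 and 2.25, 87 and 61 between 2.25 and 2.5, and 18 and 59 above 2.5. Regions called in control 1 and both Sam-S libraries therefore lacked a control 2 peak in 91.6% of cases in the weakest class and in 23.4% in the strongest. The rule used these calls, so the shares are a description. Over all classes the members were 78.0% of the 1140 such regions. They were 40.5% of all Sam-S 1 regions on these arms, 33.3% of Sam-S 2 regions and 55.0% of control 1 regions.

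**Figure D4:**
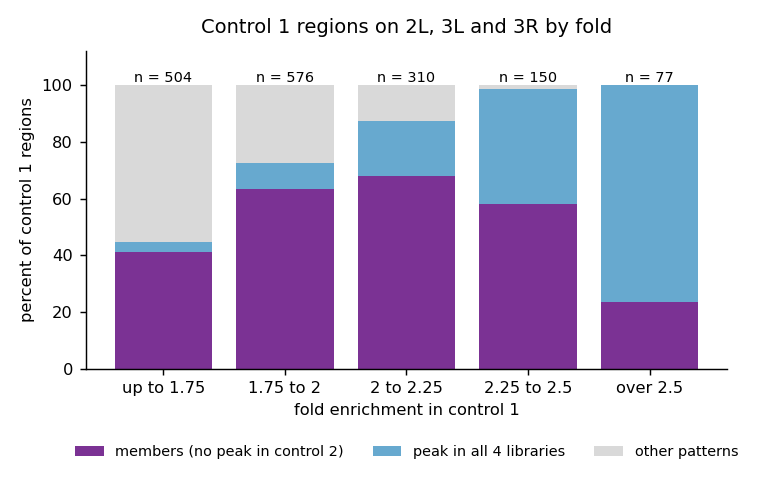
Percent of control 1 regions on 2L, 3L and 3R (y axis) that are members, that have a peak in all 4 libraries or that have another pattern, by fold enrichment in control 1 (x axis). The number of control 1 regions stands above each bar. Members are 41.1% of the regions with a fold up to 1.75, 63.5% between 1.75 and 2, and 68.1% between 2 and 2.25. They are 58.0% between 2.25 and 2.5 and 23.4% above 2.5, so the share rises and then falls.

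The cutoff of the caller was reached at the highest fold in control 2. At the genome-wide background, the lowest fold on each list was 1.45 in Sam-S 1, 1.45 in Sam-S 2, 1.42 in control 1 and 1.52 in control 2. Of the 889 members, 873 (98.2%) had a control 1 fold above the 1.52 of control 2. That value holds only at the genome-wide background, and control 2 folds went down to 1.30 at regions called in all 4 libraries. Among the 533 members with control 1 at its genome-wide background, 530 were above 1.52. The rule asked for a control 1 peak, so both counts are a description. The control 1 folds in them are not adjusted for the lower folds of control 2. Whether the cutoff accounts for the missing control 2 peaks was not tested. At the regions called in all 4 libraries, the median log2 ratio of control 2 over control 1 was -0.31. Among the regions called in all 4 libraries with a control 1 fold between 1.75 and 2, the median was 1.66 in control 2. The lists give no control 2 value at a member, so how far below the cutoff control 2 lay there was not measured, and stretches shorter than 200 bp are not in any list.

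The regions nearest to the limits of the rule were picked by different values, the control 1 peak inside it and the control 2 peak outside it, and are listed without a comparison. The members with the weakest control 1 peak were 2L 1697009 to 1697360 in chinmo, with folds of 1.35 in Sam-S 1, 1.66 in Sam-S 2 and 1.31 in control 1, the mts region above, and 3L 13870771 to 13871044 in dysc, with 1.52, 1.61 and 1.45. The regions kept out by the weakest control 2 peaks were 3R 622739 to 623225 in Myo81F, with 1.79 in Sam-S 1, 1.78 in Sam-S 2, 1.74 in control 1 and 1.30 in control 2, 3R 6251456 to 6252180 outside genes, with 1.73, 2.08, 1.80 and 1.44, and 2L 2745831 to 2746380 in Cwc25, with 1.94, 2.33, 1.77 and 1.36.

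Some members bordered a control 2 peak. In all, 28 lay within 1 kb of one and 116 (13.0%) within 10 kb, while the median distance was 81.7 kb. Distances of other regions to a control 2 peak were not measured, so these counts are not shown to be particular to the members. The closest member was 3R 10258692 to 10259400 in Sirt6, a sirtuin deacetylase, 97 bp from a control 2 peak. Its folds were 1.90 in Sam-S 1, 2.07 in Sam-S 2 and 1.84 in control 1, beside 2.88, 2.72, 2.33 and, in control 2, 2.15 in the neighbouring region. The next were 3L 27259861 to 27260169 outside genes, at 131 bp, and 3R 27725680 to 27725963, at 149 bp.

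The region at 3R 27725680 was the strongest member by the lowest of its 3 folds and by its control 1 fold. It lies outside the genes of the table and had folds of 2.77 in Sam-S 1, 3.19 in Sam-S 2 and 2.77 in control 1. The region beyond it had 2.86 in Sam-S 1, 2.91 in Sam-S 2, 2.53 in control 1 and 2.00 in control 2. Here the member was the stronger of the neighbours in control 1 and the neighbour was the one listed in control 2.

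The other strongest members lay between 24976 and 613544 bp from the nearest control 2 peak. They were 3L 25964362 to 25964804 in l(3)80Fg, with folds of 2.78 in Sam-S 1, 2.96 in Sam-S 2 and 2.76 in control 1, and 2L 7836690 to 7836988 outside genes, with 2.84, 3.05 and 2.70. The region 3L 22788019 to 22788323, also outside genes, had 2.84 in Sam-S 1, 2.90 in Sam-S 2 and 2.69 in control 1. The region 3R 7676712 to 7677014 lies in Nlg1, a neuroligin of the postsynaptic membrane, and had 2.71, 3.05 and 2.67. The control 1 fold was also among the 5 highest at 3R 22007325 to 22007724 in Eip93F, an ecdysone-induced transcription factor, with 2.64 in Sam-S 1, 3.33 in Sam-S 2 and 2.74 in control 1, and at 3R 20802521 to 20802886 in the RNA-binding protein gene Syp, with 2.43, 3.25 and 2.72. At Syp and Eip93F the Sam-S libraries stood on opposite sides of control 1.

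The summits of a member lay close together at most members, with distances of up to 486 bp for Sam-S 2 and control 1. The summits of Sam-S 1 and control 1 were a median of 15 bp apart and within 50 bp at 87.2% of members, those of Sam-S 2 and control 1 were 16 bp apart (85.8% within 50 bp), and those of the Sam-S libraries 16 bp. At the regions called in all 4 libraries the medians for the same pairs were 15, 14 and 17 bp. The rule asked only for a shared base. At members the median peak length was 267 bp in Sam-S 1, 283 bp in Sam-S 2 and 251 bp in control 1. Overlap of such short peaks already keeps summits near each other, so the distances are a description.

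Members were spread along the arms. There were 186 on 2L, 327 on 3L and 376 on 3R, or 7.91, 11.6 and 11.7 per Mb. They made up 77.2%, 79.6% and 77.0% of the regions with a peak in control 1 and both Sam-S libraries on 2L, 3L and 3R. When each arm was divided into 10 equal parts from the telomere, the outer 9 parts held between 77 and 118 members each and the part next to the centromere held 50, which is 5.62% of members beside 5.81% of all merged regions on these arms. The 251 regions called in all 4 libraries numbered 15 in that last part and 39 in the part before it. Another member lay within 10 kb of 314 members (35.3%), and the median distance to the next was 20.9 kb. Such spacing was not measured for other regions of these arms, so it is not shown to be particular to the members.

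Most members lay in genes, at about the share of all merged regions of these arms, and the genes holding them were long. The midpoint was in a gene at 679 members (76.4%, 95% Wilson interval 73.5 to 79.1%) and in a protein-coding gene at 652. The share was 81.3% (76.0 to 85.6%) at the regions called in all 4 libraries and 75.8% (74.4 to 77.2%) over all merged regions of these arms. After a shift of all midpoints by 5 kb either way the share for members was 73.5% or 73.6%. Members fell in 456 of 8794 protein-coding genes on these arms (5.19%), of which 140 held more than 1. The median length of the genes with a member was 27.1 kb, against 2.08 kb for all protein-coding genes. Longer genes cover more sequence, and the length of genes holding other regions was not measured, so this is not shown to be particular to the members. The share of genes with a member was 0.702% below 5 kb, 9.10% from 5 to 20 kb, 38.2% from 20 to 50 kb and 59.2% from 50 kb. Of the 456 genes, 83 (18.2%) also held a region called in all 4 libraries, which is 44.9% of the 185 genes with such a region.

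Tet was among the 7 genes that held the most members. Its 10 merged regions comprised 6 members, 1 region called in all 4 libraries and 3 regions called in a single Sam-S library. The members were at 3L 2799490 to 2799709, with folds of 2.25 in Sam-S 1, 2.23 in Sam-S 2 and 2.05 in control 1, at 2822728 to 2822961, with 2.15, 2.41 and 2.02, and at 2824408 to 2824788, with 2.60, 2.60 and 2.43. At these first 3 members both Sam-S libraries were above control 1. Further along were 2824880 to 2825130, with 1.79 in Sam-S 1, 1.63 in Sam-S 2 and 1.74 in control 1, 2867602 to 2868030, with 2.52, 2.28 and 2.31, and 2873109 to 2873498, with 1.94, 2.17 and 1.95. At these other 3 members control 1 lay between the Sam-S libraries. The Tet region called in all 4 libraries, 2828871 to 2829227, had 2.34 in Sam-S 1, 2.27 in Sam-S 2, 2.12 in control 1 and 1.81 in control 2. The log2 ratios at the Tet members ran from -0.01 to 0.13 for Sam-S 1 and from -0.09 to 0.25 for Sam-S 2 over control 1, beside counting errors of 0.15 to 0.18. Peaks were thus called at Tet in both genotypes, and each ratio lay within its own counting error except that of Sam-S 2 at 2822728 to 2822961.

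**Figure D5:**
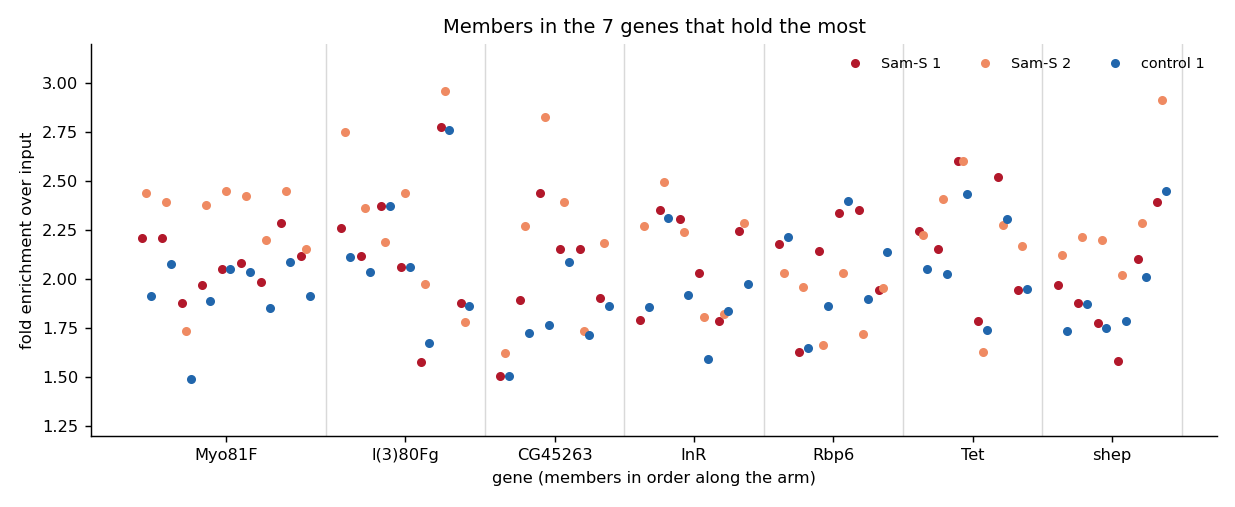
Fold enrichment over input (y axis) of each member in the 7 genes that hold the most (x axis, members in order along the arm), in Sam-S 1, Sam-S 2 and control 1. In Myo81F the Sam-S 2 point is the upper one of its pair with control 1 at all 9 members, whereas in Rbp6 it is so at 1 of 6.

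In 5 of the other genes with many members, control 1 had the lowest median and each Sam-S library was above it at most members. The same held over all regions of the series with a peak in both libraries, at 72.7% for Sam-S 1 and 79.5% for Sam-S 2. This direction is therefore not particular to these genes. Myo81F, a myosin gene spread over the heterochromatin next to the centromere of 3R, held 9 members, the most of any gene. It spans 1966 kb, which gives 0.0458 members per 10 kb, the least dense of the 7 genes. Sam-S 1 was above control 1 at 8 of the Myo81F members and Sam-S 2 at all 9. The medians were 2.08 in Sam-S 1, 2.39 in Sam-S 2 and 1.91 in control 1. The essential heterochromatic gene l(3)80Fg held 7 members, with medians of 2.12 in Sam-S 1, 2.36 in Sam-S 2 and 2.06 in control 1. InR, the insulin receptor, which governs growth and the pace of oogenesis, held 6 within 49.1 kb, or 1.22 members per 10 kb, the densest of the 7 genes. The InR medians were 2.14 in Sam-S 1, 2.26 in Sam-S 2 and 1.89 in control 1, with Sam-S 2 above control 1 at 5 members by fold and at 3 by normalised pileup. The InR region called in all 4 libraries had 2.69, 2.76, 2.60 and, in control 2, 1.85. CG45263 held 6 members, with medians of 2.03 in Sam-S 1, 2.23 in Sam-S 2 and 1.75 in control 1, and shep, a neuronal RNA-binding protein gene, held 6, with 1.92, 2.20 and 1.83. Shep also held 4 regions called in all 4 libraries.

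Rbp6, an RNA-binding protein of the Musashi family, had more members at which control 1 exceeded a given Sam-S library than the reverse. Its 6 members had medians of 2.16 in Sam-S 1, 1.96 in Sam-S 2 and 2.02 in control 1, and control 1 was above Sam-S 1 at 4 of the 6 and above Sam-S 2 at 5. Its log2 ratios ran from -0.14 to 0.31 for Sam-S 1 and from -0.24 to 0.25 for Sam-S 2. Members of 1 gene share its surroundings and are not replicates, and these genes were picked for their number of members.

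Gene groups fitting ovary and methylation were read beside the share of all genes of like length. Of 26 germline and oogenesis genes on the 3 arms, 8 held a member (30.8%, background 5.19%), with a median list gene length of 13.6 kb. Among its 12 genes of at least 20 kb, 6 held one, beside 44.3% of all genes of that length. Pumilio (pum), which represses translation together with Nanos in germline stem cells, held 5 members. The strongest pum member, 3R 9220537 to 9220855, had folds of 2.51 in Sam-S 1 and of 2.60 in Sam-S 2, against 2.22 in control 1. At all 5 members of pum both Sam-S libraries were above control 1, by log2 ratios of 0.07 to 0.17 for Sam-S 1 and 0.10 to 0.30 for Sam-S 2. The transcription factor gene chinmo held 3 members. Of these, 2L 1697639 to 1697947 had 2.63 in Sam-S 1, 3.16 in Sam-S 2 and 2.44 in control 1.

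The other germline genes held 1 member each. The germ plasm organizer osk had folds of 1.89 in Sam-S 1 and of 2.15 in Sam-S 2, against 2.01 in control 1, at 3R 8937445 to 8937707. The member in bru1, a translational repressor of osk, at 2L 12285508 to 12285830, had 2.33 and 2.29 in Sam-S 1 and 2, against 1.87 in control 1, and was the germline member with the highest Sam-S 1 ratio (log2 0.31, counting error 0.16). The Dpp receptor gene tkv had 1.94 and 2.11, against 1.79, the dynein adaptor gene BicD had 1.84 and 1.84, against 1.66, and the formin gene capu had 2.46 and 2.20, against 2.13. At enc, which acts in germline cyst divisions, Sam-S 1 had 1.60 and Sam-S 2 had 2.33, against 1.75 in control 1, so the Sam-S replicates lay on either side of it.

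Of 18 piRNA pathway genes on these arms, 1 held members (5.56%, beside 5.19% of all protein-coding genes). This is AGO3, an Argonaute of the ping-pong cycle that silences transposons in the germline. It is 1 of the 2 piRNA genes that reach 20 kb, beside 44.3% of all genes of that length. Its members were 3L 23597406 to 23597634, with folds of 1.90 in Sam-S 1, 1.95 in Sam-S 2 and 1.95 in control 1, and 3L 23607285 to 23607632, with 2.13, 2.50 and 2.07. The AGO3 region called in all 4 libraries, 3L 23663977 to 23664737, had 2.71 in Sam-S 1, 3.03 in Sam-S 2 and 2.63 in control 1, with control 2 the lowest of the 4. No member lay in the 5 methionine and SAM cycle genes on these arms, whose median length is 3.72 kb, and none in the 11 eggshell genes (0.656 kb). Of 8 genes related to adenine methylation, Tet alone held members (12.5%, beside 5.19% of all protein-coding genes). It is also the only one of them with at least 20 kb. At 93.0 kb, Tet falls in the class from 50 kb, in which 59.2% of all protein-coding genes held a member. Of 15 Polycomb and trithorax genes, 1 held a member (6.67%, beside 5.19% of all protein-coding genes). It is 1 of the 2 that reach 20 kb, beside 44.3% of all genes of that length. The gene is osa, a subunit of the Brahma chromatin remodelling complex, with 1.71 in Sam-S 1, 1.83 in Sam-S 2 and 1.70 in control 1.

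Of the 8 homeotic genes, Scr and abd-A held a member, and these are 2 of the 6 homeotic genes that reach 20 kb, beside 44.3% of all genes of that length. Scr had 2.23 in Sam-S 1 and 2.14 in Sam-S 2, against 2.09 in control 1, and abd-A had 2.09 and 2.23, against 1.86. Genes of neuronal cell surface proteins and ion channels, which act in a tissue that was not sampled, held members in 21 of 62 cases (33.9%), and in 20 of the 43 that reach 20 kb, beside 44.3% of all genes of that length. An example is Rdl, a GABA receptor subunit, with 3 members along the arm. Sam-S 1 had folds of 1.94, 2.39 and 2.46 there, Sam-S 2 had 2.32, 2.30 and 2.24, and control 1 had 1.77, 2.30 and 2.32. At nAChRalpha1, an acetylcholine receptor subunit, the member 3R 24395919 to 24396196 had 2.31 in Sam-S 1 and 1.58 in Sam-S 2, against 2.05 in control 1, so that the Sam-S replicates were farther from each other than either was from control 1.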

How the data were processed

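Per the file headers, the authors used MACS 2.1.1.20160309 to call peaks separately in each immunoprecipitated library against its own input, in single-end mode with a fragment length of 200 bp, no more than 1 tag at a position, an effective genome size of 120 Mb and a q cutoff of 0.05. The smaller library of a pair was scaled up. The aligner is named as Bowtie2 in the submitters' processing notes, and the genome build is not given in the sources used here. The deposited lists hold the pileup signal at the summit, the fold enrichment (a ratio to the local background), −log10 of p and q, and 1-based coordinates. No reads, inputs or genome sequence were used here.

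Peaks sharing at least 1 bp were merged, and a library's highest fold stood for it. Each peak's background was derived from its deposited pileup signal and fold, and the normalised pileup by undoing the authors' scaling and dividing by tags. On simulated lists 3000 of 3000 regions were given their set of libraries. Genes came from RefSeq, assembly Release 6 plus ISO1 MT, used only to place midpoints, and 237 of 242 listed names matched it. Members, gene lists and named regions were chosen with earlier results of these data known. Named regions were the 5 strongest, the 5 highest and 5 lowest ratios shared by both Sam-S libraries, the 5 highest in control 1, those nearest the limits of the rule, the genes with most members and the listed genes. Intervals are 95% Wilson and cover counting error only. The work used pandas 2.3.3 and numpy 2.4.6 in Python 3.11.15, with scipy 1.17.1 for intervals and matplotlib 3.10.9 for plots.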

Additional observations from a re-analysis of the deposited data

How the results depend on the processing

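With 1 control library at the members, no value could be tested, and directions and sizes only were compared. The number of members was 885 at q of at most 0.01, 858 with peaks within 500 bp merged and 888 with a 50% overlap. It was 367 at folds of at least 2 and 53 when each list was limited to its 683 most significant peaks, settings that keep fewer peaks. Leaving out control 2 or either Sam-S library gave 1016 to 1140 members, and without control 1 no fold comparison is left. Settings added after the data were seen kept only members at least 10 kb from a control 2 peak or with both libraries at the genome-wide background. Over the settings that gave one, the median log2 ratio to control 1 ran from 0.06 to 0.08 for Sam-S 1 and from 0.15 to 0.20 for Sam-S 2. Without control 2 it was 0.08 for Sam-S 1 and 0.16 for Sam-S 2. The share in genes stayed between 76.2% and 76.4%. Among 252 values of named members under another measure, 230 moved by less than their counting error. That error serves only as a yardstick of size, because the measures largely share the same stacked tags. The 21 values that moved by more than it and the 1 that reversed were all by pileup. The other measure, the mean fold, equals the highest fold unless a member holds more than 1 peak of a library. Most of its values therefore could not move. In all 13 changed sign, 12 of them by pileup. Of these 13, the only ratio past 1.25-fold by fold was that of Sam-S 2 at the Tmep region, -0.47 by fold and 0.0175 by pileup. No paired analysis was possible because control 2 has no value at the members, which leaves 1 pair, and the results come from no test.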
